A study of Mus musculus with 41 samples.

Results

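The genes described here are 10 heat-shock and chaperone genes, chosen by symbol: Hspa8, Hspa5 and Hspa9 of the HSP70 family, Hsp90aa1, Hsp90ab1 and Hsp90b1 of the HSP90 family, the mitochondrial chaperonin genes Hspd1 and Hspe1, and Dnajb1 and Hsph1. By the array annotation used here, 9 of the 10 genes had a probe, out of 19057 genes on the array, and 15 probes belonged to these 9 genes. No probe carried the symbol Hsp90ab1, and that gene was not analysed here.

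Expression was measured on 41 Illumina mouse bead arrays, each with RNA from 1 tissue of 1 mouse pup (C57/BL6NHsd) at postnatal day 4. Dams ate a regular diet (RD, labelled study I) or a high fat diet (HFD, labelled study II), and in each study they were either controls or received metformin, a blood glucose-lowering biguanide. Under HFD, the male offspring of vehicle dams gave 6 livers and 6 samples of subcutaneous adipose tissue (SAT), and those of metformin dams gave 6 livers and 5 SAT samples, metformin having been given to the dams by mouth through most of gestation and HFD from before mating. Under RD, 3 control and 3 metformin-exposed pups were profiled for each of male brain, male liver and female liver. The pups themselves were exposed only before birth. The labels of the HFD animals share leading codes (1R and 1T in controls, 10K and 3R in metformin) whose meaning is not given. The labels of the RD animals end in shared letters (B or C in controls, E or F in metformin), whose meaning is not given either. In both arms, code and treatment cannot be told apart. The study numbers are those of the labels, from which the timeline in the study's publication differs in placing the array samples. Diet and labelled study cannot be told apart either, and RNA of SAT was extracted with another kit than RNA of liver and brain.

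Molecular chaperones bind unfolded proteins and help them to reach or regain their native shape. HSP70 proteins do so in cycles of ATP hydrolysis that J-domain proteins start and nucleotide exchange factors end, HSP90 proteins act on later folding intermediates such as kinases and steroid receptors, and chaperonins enclose a client in a chamber. Each compartment has its own set: Hspa8, Hsp90aa1, Dnajb1 and Hsph1 act in the cytosol and nucleus, Hspa5 and Hsp90b1 in the endoplasmic reticulum (ER), and Hspa9, Hspd1 and Hspe1 in mitochondria. Heat shock factor drives several of these genes under stress, and the unfolded protein response drives the ER members.

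All levels below are log2 values after background correction and quantile normalisation over all arrays, differences are on that log2 scale, and levels are compared only within a probe. Adjusted p-values are from limma with Benjamini-Hochberg adjustment over all probes tested in a comparison, with 0.05 as the threshold, and a probe was tested where all arrays of 1 or more groups of the fit detected it. Of the 15 probes, 14 were tested in at least 1 comparison. Hsp90aa1 ILMN_2662557 was detected on only 2 arrays and was tested nowhere, and Hspa5 ILMN_1255561, the only Hspa5 probe, was detected on 1 of 6 control and 3 of 5 metformin SAT arrays and was not tested there. The share of all probes detected was between 29.9 and 46.1% per array. The control SAT arrays 1R-4 (29.9%) and 1T-1 (31.5%) lay below the metformin SAT arrays (40.6 to 42.9%), and the HFD metformin liver 3R-6 (31.0%) was as low.

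The mean of 8 hepatocyte markers lay between 12.5 and 13.1 in all livers and between 5.99 and 8.86 in SAT, all 7 adipocyte markers were detected on every SAT array, and 6 of 8 neuron markers were detected on every brain array. SAT also held skeletal muscle RNA, with 14 marker genes (among them Acta1, Ckm and Mylpf) averaging 12.08, 6.61, 8.82, 11.64, 8.03 and 11.59 in controls 1R-1, 1R-4, 1T-1, 1T-2, 1T-3 and 1T-4. The same mean was 10.81 to 11.95 in the metformin SAT arrays, so 3 controls lay below all of them. In 1 metformin array, 3R-1, 7 of 7 keratinocyte markers were detected, at a mean of 8.53. In such bulk samples, fewer cells of a type and less RNA per cell cannot be told apart.

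Most member probes differed between brain and liver. In RD male controls, 5 of 14 member probes were higher in brain than in liver and 7 were lower (limma, adjusted p under 0.05), where 38.5% of all probes were higher and 36% lower, so the members' shares were not far from those of all probes. Of the cytosolic members, Hsph1, Hsp90aa1 and 2 of 3 Hspa8 probes were higher in brain, while Dnajb1 and the third Hspa8 probe were not. All tested probes of the mitochondrial and ER members were lower. Hsph1, an HSP110 protein that exchanges the nucleotide of HSP70, measured 10.41, 10.25 and 10.10 in control brains and 7.69, 7.49 and 7.55 in control livers. Every brain lay above every liver, as for 40.1% of all probes, and the difference was 2.68 (95% interval 2.30 to 3.05, adjusted p = 7.46e-09). Hsp90aa1, the stress-inducible cytosolic HSP90, was higher in brain by 1.24 with ILMN_2668319 and by 1.84 with ILMN_2752883. Hspa8, the constitutive cytosolic HSP70, was higher by 1.54 (ILMN_1246458) and 1.38 (ILMN_1249586).

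Hspe1, the co-chaperonin that caps the HSP60 chamber, measured 9.05, 9.27 and 9.72 in control brains against 10.78, 10.94 and 11.10 in control livers. The groups did not overlap, as for 37.2% of all probes in that direction, and the difference was -1.59 (adjusted p = 1.35e-06). Its partner Hspd1 (HSP60) differed by -2.52 with ILMN_2639036 and by -0.997 with ILMN_2713841. The mitochondrial HSP70 gene Hspa9 differed by -2.004 (ILMN_1222803) and -1.19 (ILMN_2821196), the ER HSP90 gene Hsp90b1 by -0.78, and Hspa5, the ER HSP70 known as BiP, by -0.88. Dnajb1, a J-domain partner of Hspa8, did not differ beyond its error (0.16, 95% interval -0.14 to 0.46). The third Hspa8 probe, ILMN_2918479, went the other way from its companions at -1.06 (adjusted p = 0.0513).

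Set side by side over the 4 male control groups, the order of the levels differed from gene to gene. Hsph1 averaged 10.25 ± 0.15 in RD brain (SD, 3 animals), 7.76 ± 0.41 in HFD liver (6), 7.57 ± 0.10 in RD liver (3) and 7.40 ± 0.95 in SAT (6), so that brain stood alone and the other groups overlapped. Hsp90aa1 ILMN_2668319 averaged 10.53 ± 0.47 in brain, 9.28 ± 0.15 in RD liver, 7.68 ± 0.43 in HFD liver and 7.45 ± 0.26 in SAT, of which the last pair overlapped. Hspe1 had another order, with 10.94 ± 0.16 in RD liver, 9.42 ± 0.13 in HFD liver, 9.35 ± 0.34 in brain and 8.90 ± 0.27 in SAT. Dnajb1 spanned less, from 10.69 ± 0.03 in brain through 10.53 ± 0.27 in RD liver and 10.41 ± 0.18 in HFD liver to 10.01 ± 0.18 in SAT. RD and HFD groups come from separate studies, and only the differences within 1 study are free of that.

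In HFD controls, no member probe was higher in SAT than in liver at an adjusted p under 0.05 (limma), where 35.9% of all probes were, and 7 of 13 were lower, where 25.3% of all probes were. The lower probes were those of Hsp90b1 (-0.74, adjusted p = 1.71e-05), Hspd1 (-1.36 and -0.47), Hspe1 (-0.53), Dnajb1 (-0.40), 1 of 2 Hspa9 probes (ILMN_1222803, -0.55) and 1 of 3 Hspa8 probes (ILMN_2918479, -0.69). Only the 3 probes of Hsp90b1 and Hspd1 had every SAT control below every liver control, as 16.2% of all probes had. The brightest Hspa8 probe differed by 0.21 (95% interval -0.04 to 0.45), Hsp90aa1 ILMN_2668319 by -0.23 (-0.61 to 0.15) and Hsph1 by -0.36 (-1.03 to 0.31). With arrays centred on their medians in place of quantile normalisation, only Hspd1 ILMN_2639036 stayed past the threshold (-1.37). Tissue and extraction kit cannot be told apart in this comparison.

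**Figure D1:**
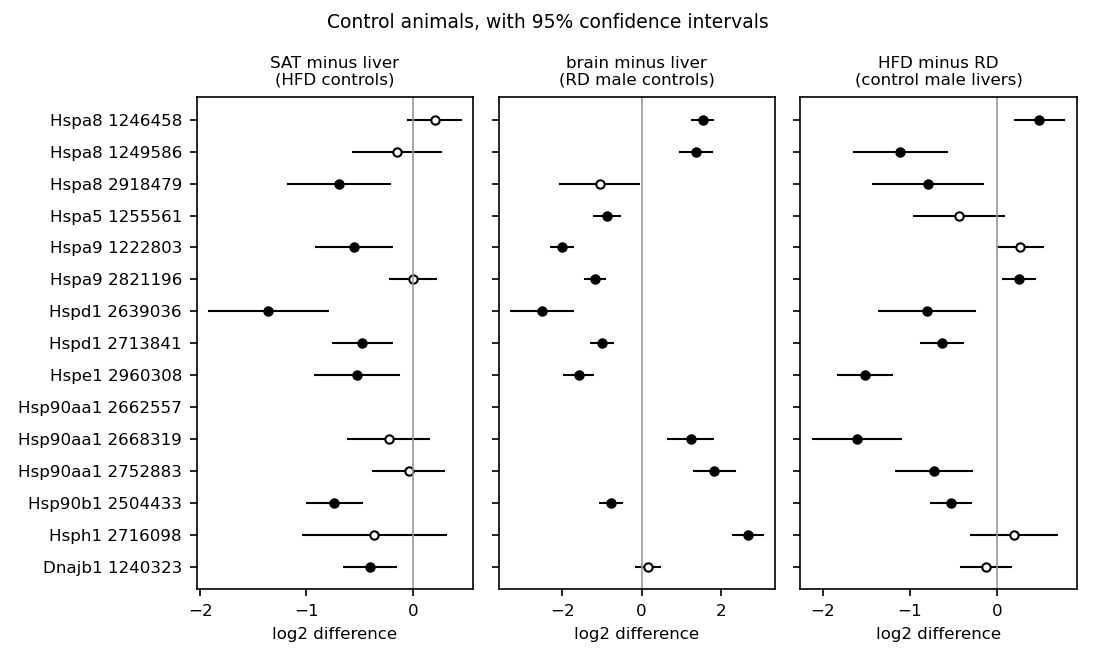
Log2 differences of each tested member probe between control groups, with 95% intervals, for SAT against liver (HFD), brain against liver (RD males) and HFD against RD (male livers); filled points passed an adjusted p of 0.05. Hsph1 stood 2.68 higher in brain than in liver, Hspd1 ILMN_2639036 stood lowest at -2.52, and no probe was higher in SAT past that threshold.

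The main question of the HFD arm was whether metformin given to the dam changed expression in the offspring's SAT. No member probe passed the threshold there, and 0% of all 15848 probes did. The smallest p of all 15848 probes nevertheless belonged to a member, Hspa8 ILMN_1249586, and 12 of 13 member probes had a positive difference, against 55.8% of all probes. At an unadjusted p under 0.05, 7 of 13 were higher and 0 lower, against 9.63% and 6.72% of all probes. The median difference was 0.34 over the member probes and 0.04 over all probes. Taking the brightest probe of each gene, 5 of 8 members were higher at an unadjusted p under 0.05 with a median of 0.57, against 8.91% of 9360 genes and a median of 0.03. That several of these probes lean upward in SAT was known when the genes were chosen, so these counts are a description.

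**Figure D2:**
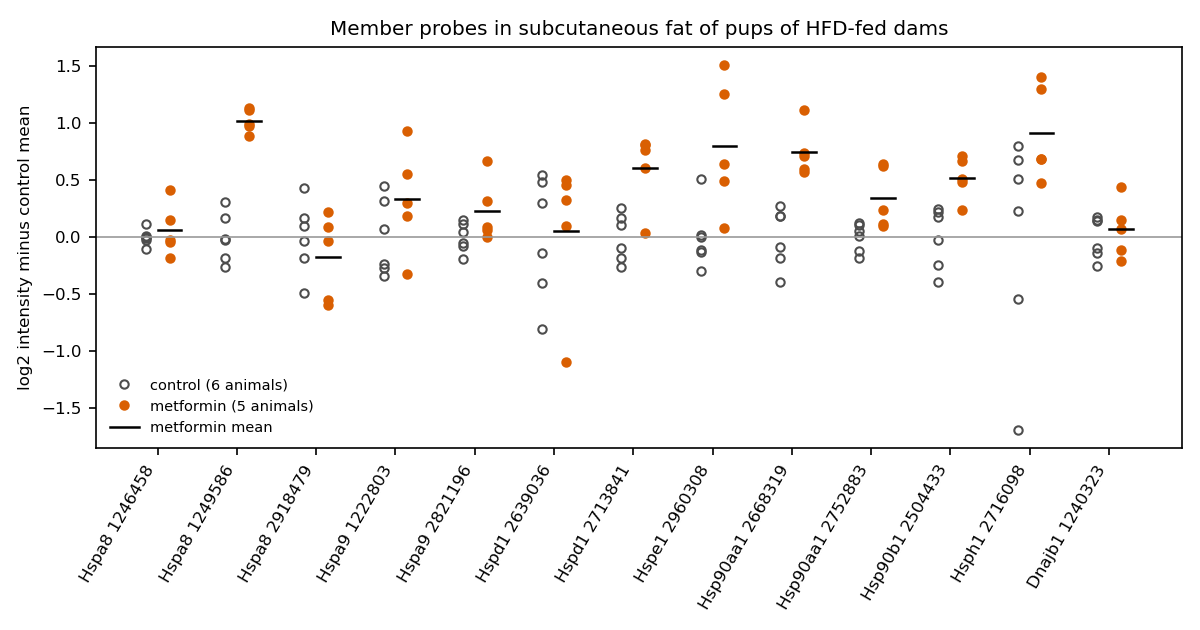
Levels of the 13 tested member probes on the 11 SAT arrays, as log2 value minus the mean of the 6 control arrays, with each point 1 animal and bars for the group means. All 5 metformin arrays lay above all 6 controls for Hspa8 ILMN_1249586 and Hsp90aa1 ILMN_2668319, and the groups overlapped for the other 11 probes.

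Hspa8 was read by 3 probes that disagreed. With ILMN_1249586 the 6 SAT controls ranged from 10.02 to 10.60 around a median of 10.26, and the metformin samples 10K-2, 3R-1, 3R-2, 3R-5 and 3R-6 measured 11.42, 11.40, 11.17, 11.28 and 11.26. Every metformin sample lay above every control, as for 1.67% of all probes, and the difference was 1.02 (SE 0.13, 95% interval 0.74 to 1.31, unadjusted p = 3.54e-06, adjusted p = 0.0561). With ILMN_1246458, the brightest, the controls ranged from 13.15 to 13.37 around 13.25 and the metformin samples measured 13.40, 13.67, 13.21, 13.07 and 13.22. The groups overlapped, at 0.06 (95% interval -0.21 to 0.34, adjusted p = 0.814). With ILMN_2918479 the controls ranged from 9.43 to 10.36 around 9.96, and the metformin samples measured 10.15, 9.37, 10.02, 9.33 and 9.89. Here too the groups overlapped, at -0.17 (95% interval -0.61 to 0.26, adjusted p = 0.671).

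The difference between probes was itself tested on each array's difference of paired probes, over 6 pairs of probes of 4 genes. The Hspa8 disagreement was already known when the genes were chosen, so the p-values of the Hspa8 pairs are a description. ILMN_1246458 minus ILMN_1249586 averaged 2.97 in SAT controls and 2.01 with metformin, a change of -0.96 (exact permutation test, two-sided, p = 0.00216, the smallest this design allows, 0.00649 adjusted over the 6 pairs). ILMN_1249586 and ILMN_2918479 moved apart by 1.19 with the same p, and ILMN_1246458 and ILMN_2918479 by 0.24 (exact permutation p = 0.344). Over the 11 SAT arrays the Pearson correlations of the 3 Hspa8 pairs were 0.33, -0.02 and -0.13, whereas the 2 probes of Hspa9 correlated at 0.84 and those of Hsp90aa1 at 0.71, over arrays that share treatment groups and muscle content. In HFD liver, none of the 6 pairs passed the threshold after adjustment (smallest adjusted exact permutation p = 0.0909), and without metformin liver 10K-2 both Hspa8 pairs with ILMN_2918479 and the Hspd1 pair did (adjusted 0.0195 to 0.0346). Which Hspa8 transcripts each probe reads was not tested.

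**Figure D3:**
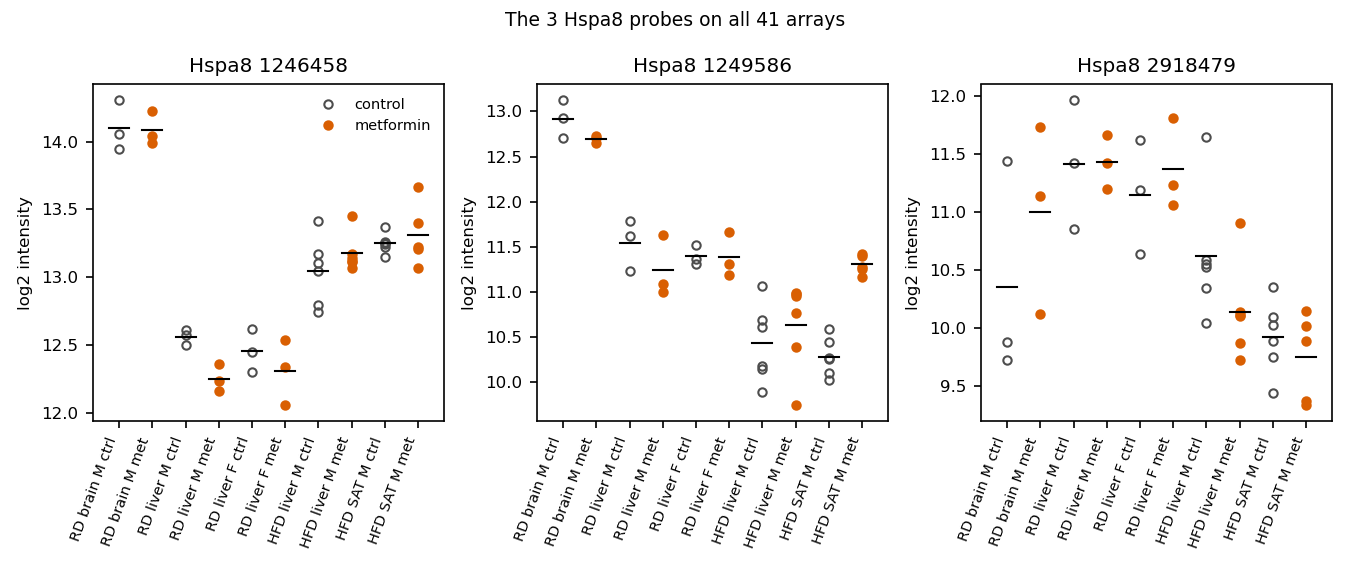
Normalised log2 levels of the 3 Hspa8 probes on all 41 arrays, by tissue, diet, sex and treatment, each point being 1 animal and each bar a group mean. Only ILMN_1249586 separated the SAT groups (10.02 to 10.60 in controls, 11.17 to 11.42 with metformin), and ILMN_2918479 spread widely within brain (9.72 to 11.74).

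ILMN_2918479 also spread within brain in a way that crossed the groups. It measured 9.88, 9.72 and 11.45 in controls 1B, 3B and 5C and 11.14, 11.74 and 10.12 with metformin in 3E, 1E and 6F. Hspd1 ILMN_2639036 was high in the same 3 brains, at 7.04, 7.09 and 8.33 in the controls and 8.18, 8.57 and 7.28 with metformin. The other probes of both genes did not follow, Hspd1 ILMN_2713841 staying between 10.96 and 11.38.

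The SAT genes most like Hspa8 ILMN_1249586 over the 11 arrays were Timm8a1 (Pearson r = 0.94), which encodes a mitochondrial import chaperone, Epm2aip1 (0.93), Cct8 (0.93), a subunit of the cytosolic chaperonin, Ebna1bp2 (0.92) and 4930453N24Rik (0.90). Those most like ILMN_1246458 were Heatr1 (0.91), Rfc2 (0.90), Srpk1 (0.90), Hacd3 (0.89) and Tctn3 (0.86), and the lists shared no gene. The points share the treatment groups, so these values are a description.

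Hspd1 and Hspe1, which together form the mitochondrial folding chamber, lie head to head on chromosome 1. In RefSeq (GRCm38.p6), the Hspe1 start and 1 annotated Hspd1 start are 216 bases apart on opposite strands. The stretch between them is shown because it held the heat shock element searched for, GAANNTTCNNGAA or TTCNNGAANNTTC on either strand, which 0.603% of 32851 promoter windows of 300 bases held. The window held both forms, overlapping each other, marked in capitals. They begin 89 and 84 bases upstream of the Hspe1 start. Read on the strand of Hspd1, the same matches begin, in that order, 139 and 144 bases upstream of that Hspd1 start. Another annotated Hspd1 start, at chr1:55088243, lies on the other side of the Hspe1 start, and its window held 0 matches. The stretch is chr1:55088039-55088096 on the plus strand, the strand of Hspe1.
Hspe1: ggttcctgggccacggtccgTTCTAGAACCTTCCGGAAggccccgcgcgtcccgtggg
A match is a description of the letters and not of a bound site.

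In SAT, Hspe1 ranged from 8.60 to 9.40 around a median of 8.84 in controls and measured 9.39, 8.98, 9.54, 10.41 and 10.15 with metformin. The highest control lay above 2 metformin samples, and the difference was 0.80 (95% interval 0.27 to 1.32, unadjusted p = 0.00614, adjusted p = 0.188). Hspd1 ILMN_2713841 ranged from 10.74 to 11.25 around 11.005 in controls and measured 11.80, 11.03, 11.61, 11.82 and 11.76 with metformin. All metformin samples but 3R-1 lay above the controls, and the difference was 0.61 (0.24 to 0.97, unadjusted p = 0.00325, adjusted p = 0.172). Hspd1 ILMN_2639036 showed no such shift, with controls from 7.04 to 8.39 around 7.93 and metformin samples at 8.34, 6.75, 8.17, 7.94 and 8.31 (0.06, 95% interval -0.63 to 0.75). The change of -0.55 between the Hspd1 probes did not pass the test (exact permutation p = 0.106, 0.159 adjusted over the 6 pairs). It did pass with the deposited log2 values (-0.60, exact permutation p = 0.00649, adjusted 0.00974) and without control 1R-1 (-0.74, adjusted 0.0476).

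Hspa9, which pulls proteins through the mitochondrial import pore, gave 0.33 (95% interval -0.15 to 0.82) with ILMN_1222803 and 0.23 (-0.08 to 0.54) with ILMN_2821196, with overlapping groups in both. Its highest SAT sample was 10K-2 for both probes, at 11.92 and 13.88, against controls of up to 11.44 and 13.36, and without that sample the differences were 0.18 and 0.12.

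Hsp90aa1 ILMN_2668319 ranged from 7.06 to 7.73 around a median of 7.50 in SAT controls and measured 8.05, 8.02, 8.16, 8.57 and 8.19 with metformin. As with Hspa8 ILMN_1249586 there was no overlap, and the difference was 0.75 (95% interval 0.41 to 1.09, unadjusted p = 0.000408, adjusted p = 0.144). Hsp90aa1 ILMN_2752883, dimmer and detected on 28 of 41 arrays, ranged from 4.70 to 5.01 around 4.91 and measured 4.98, 5.00, 5.12, 5.52 and 5.50 with metformin. These groups overlapped, at 0.34 (0.04 to 0.65, adjusted p = 0.267), and the change between both probes was 0.40 (exact permutation p = 0.0238, 0.0476 adjusted over the 6 pairs), which did not hold in 8 of the 11 tests that left out 1 animal (adjusted exact permutation p of 0.0833 to 0.124).

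Hsph1 also held a heat shock element, 15 bases after one annotated start and 36 bases after another, on the minus strand at chr5:149636287-149636306. It is shown, with the element in capitals, because with Hspe1 and Hspd1 it completes the members in which the element was found.
Hsph1: tgcagaTTCTGGAAAGTTCt
The windows of Hspa5, Hsp90b1 and Dnajb1 held no match to these letters. Hspa8, Hspa9 and Hsp90aa1 had no window and were not searched. Hsph1 in SAT ranged from 5.71 to 8.20 around 7.77 in controls and measured 8.70, 8.81, 7.88, 8.09 and 8.08 with metformin. The difference of 0.91 (95% interval 0.04 to 1.78, unadjusted p = 0.0417, adjusted p = 0.288) was 0.57 (unadjusted p = 0.0552) without control 1R-4 and 0.40 (unadjusted p = 0.12) without the 3 controls lowest in muscle markers. Dnajb1, which starts the HSP70 cycle, ranged from 9.76 to 10.18 in controls and measured 9.89, 10.44, 10.08, 10.16 and 9.80 with metformin (0.07, 95% interval -0.25 to 0.39, adjusted p = 0.823).

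The ER members are shown with the ER stress element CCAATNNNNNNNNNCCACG (either strand, 0.119% of the 32851 windows), a promoter element of the unfolded protein response, in capitals. Its first 5 letters are the CCAAT box, which 37.4% of windows held. Hspa5 had 1 match, 65 bases upstream of its start, at chr2:34772005-34772063 on the plus strand, and Hsp90b1 had 2, at 212 and 107 bases upstream, the nearer one on the opposite strand, at chr10:86705513-86705676 on the minus strand.
Hspa5: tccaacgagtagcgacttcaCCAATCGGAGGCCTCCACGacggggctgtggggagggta
Hsp90b1: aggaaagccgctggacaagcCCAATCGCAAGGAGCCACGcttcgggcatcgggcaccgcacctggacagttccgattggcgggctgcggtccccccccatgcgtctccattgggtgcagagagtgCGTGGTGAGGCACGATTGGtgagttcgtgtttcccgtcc
In SAT, Hsp90b1 ranged from 10.94 to 11.57 around 11.40 in controls and measured 11.57, 11.81, 11.997, 12.04 and 11.83 with metformin. The lowest metformin sample met the highest control, and the difference was 0.52 (95% interval 0.19 to 0.86, unadjusted p = 0.00472, adjusted p = 0.18). Hspa5 was close to background in SAT and is not compared there.

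Muscle and brown fat markers also leaned upward in metformin SAT, and whether they varied together with the member probes was not tested. Skeletal muscle markers differed by a median of 1.79 between metformin and control SAT, 14 of 14 in the positive direction, against 5028 of 9360 genes. Of these markers, 0 passed the threshold and 2 (14.3%) were higher at an unadjusted p under 0.05, against 8.91% of all genes. Brown adipocyte markers such as Ucp1 and Cidea averaged 7.73 to 9.29 in controls and 8.85 to 10.01 with metformin. At an unadjusted p under 0.05, 5 of 6 tested (83.3%) were higher, against the same 8.91% of all genes. White adipocyte markers averaged 11.63 to 12.51 in controls and 11.97 to 12.24 with metformin. A refit without the 3 controls lowest in muscle markers (1R-4, 1T-1 and 1T-3) was chosen after the data were seen. There, Hspa8 ILMN_1249586 differed by 1.06, Hspe1 by 0.94, Hsp90aa1 ILMN_2668319 by 0.68, Hspd1 ILMN_2713841 by 0.55 and Hsp90b1 by 0.40. The part of brown adipocyte RNA in these differences was not tested.

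**Figure D4:**
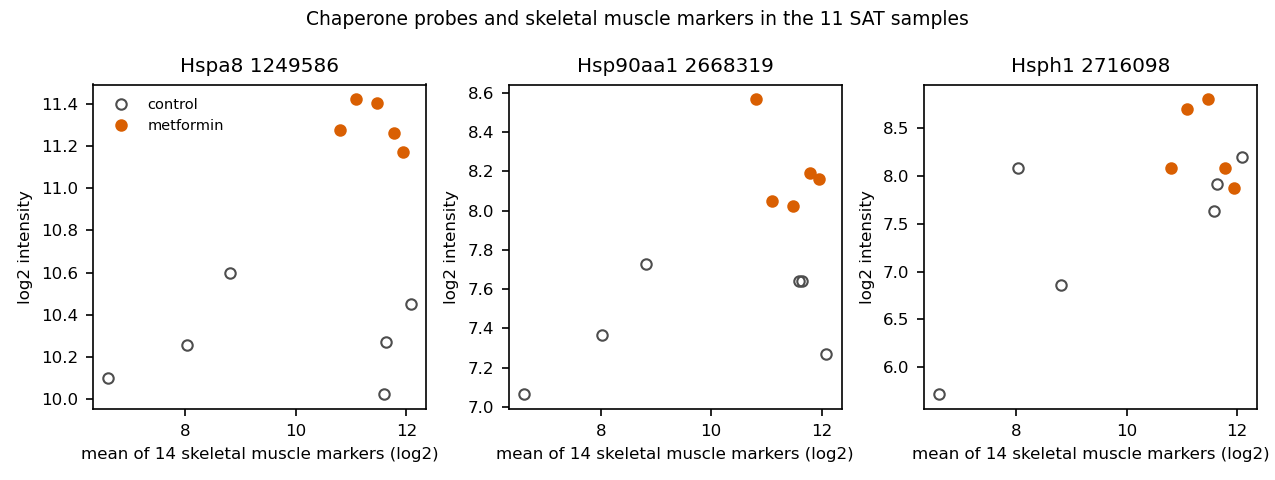
Log2 levels of Hspa8 ILMN_1249586, Hsp90aa1 ILMN_2668319 and Hsph1 on the 11 SAT arrays against the mean log2 level of 14 skeletal muscle markers on the same array, with control and metformin samples in separate colours. The metformin samples lay above all controls for the Hspa8 and Hsp90aa1 probes, and the lowest Hsph1 value, 5.71, was a control. Muscle markers averaged 6.61 to 12.08 in controls and 10.81 to 11.95 with metformin, and whether they varied together with these probes was not tested.

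Whether any member passed in SAT depended on the processing. Hspa8 ILMN_1249586 passed with the authors' deposited log2 values (adjusted p = 0.00421), with normalisation over the SAT arrays alone (0.0392) and without control 1T-1 (0.0154), and it did not with arrays centred on their medians (difference 1.74, adjusted p = 0.32). With all 41 arrays in 1 model, 5 member probes were higher past the threshold (Hspa8 ILMN_1249586, Hsp90aa1 ILMN_2668319, Hsp90b1, Hspd1 ILMN_2713841 and Hspe1), among 1327 of 22853 probes called, and with the deposited values in that model, which is nearest to the methods of the study, Hsph1 took the place of Hsp90aa1 among 5, with 1286 probes called.

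Other genes of the chaperone network were read from lists. None of their members passed the threshold in the fit of the SAT arrays alone, where 0 of 15848 probes did. The lists were not read with all arrays in 1 model. The paper, which analysed these arrays together with its earlier dataset, reports several of the listed genes as changed in SAT. Cct8, Hspb8, Yme1l1, Fkbp4, St13, Atf4, Tcp1, Hspb1 and Grpel1 are among those higher there, and Tomm34 and Zfp36 among those lower. Among 19 tested co-chaperones of HSP70 and HSP90, 4 were higher and 1 lower at an unadjusted p under 0.05 (21.1% higher, against 8.91% of all genes), with a median of 0.11. St13, which stabilises the HSP70 client complex, differed by 0.82 (adjusted p = 0.187) and Fkbp4, an HSP90-bound peptidyl-prolyl isomerase, by 0.50 (adjusted p = 0.198). Among 10 subunits of the cytosolic chaperonin and prefoldin, 2 were higher and 0 lower, Cct8 by 0.61 (adjusted p = 0.144) and Tcp1 by 0.50 (adjusted p = 0.187). All 6 small heat shock proteins had positive differences with a median of 0.62, among them Hspb8 at 1.11 (adjusted p = 0.195) and Hspb1 at 0.66. Of the 6, 1 (16.7%, against 8.91% of all genes) was higher at an unadjusted p under 0.05. Several genes of this family are known for their expression in muscle.

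The mitochondrial import motor and protease list had 12 of 14 positive differences, against 5028 of 9360 genes, and 2 of 14 (14.3%, against 8.91% of all genes) were higher at an unadjusted p under 0.05, Yme1l1 (an inner membrane protease, 0.98) and Tomm70a (an import receptor, 0.52). The 19 genes of ER folding and the unfolded protein response were balanced, with 3 higher, 1 lower and a median of -0.00, Atf4 at 0.54 and Sil1, a nucleotide exchange factor of Hspa5, at -0.39. J-domain proteins had 1 higher (Dnaja2, 0.62) and 1 lower (Dnajb6, -0.41) of 8, and the 5 other HSP70 and HSP110 genes had none, with Hspa4 at 0.31 and Hspa4l at 0.17. Of the heat shock factor list, Hsf2 differed by 0.80 (unadjusted p = 0.0172) and the factor-binding Hsbp1 by 0.15. Immediate-early genes, which respond to handling of tissue within minutes, went both ways, with 2 of 8 higher and 2 lower at an unadjusted p under 0.05, Atf3 at 0.82 and Zfp36 at -0.68.

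In HFD liver, no member probe passed the threshold either, where 0.758% of all 17547 probes did. Of 14 member probes, 1 was higher and 1 lower at an unadjusted p under 0.05, against 7.95% and 9.84% of all probes, and 8 had a positive difference, against 48.4% of all. Hsp90aa1 ILMN_2668319 ranged from 7.17 to 8.11 around a median of 7.73 in control livers and from 7.89 to 8.93 around 8.32 with metformin. The groups overlapped, at 0.69 (95% interval 0.28 to 1.10, unadjusted p = 0.00222, adjusted p = 0.0857), and the probe passed without the animals coded 1T (adjusted p = 0.0386) or 10K (0.0472). Hspd1 ILMN_2639036 ranged from 8.74 to 9.76 around 9.24 in controls and from 8.06 to 9.30 around 8.58 with metformin. Its difference was -0.58 (-1.03 to -0.13, adjusted p = 0.169), while ILMN_2713841 of the same gene gave 0.07 (-0.13 to 0.26).

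The remaining liver members lay nearer to 0. Hsph1 ranged from 6.97 to 8.10 in controls and 7.79 to 8.87 with metformin (0.39, 95% interval -0.01 to 0.79), and the Hspa8 probes gave 0.13, 0.20 and -0.48, none past the threshold. Hspa8 ILMN_1249586, which led in SAT, ranged from 9.89 to 11.07 in control livers and 9.75 to 10.99 with metformin. Hspe1 gave -0.05 (-0.31 to 0.20), Hsp90b1 0.16 (-0.03 to 0.35), Hspa5 -0.10, Dnajb1 -0.10 and the Hspa9 probes -0.07 and 0.06. The 9 granulocyte genes, a measure of blood-forming cells in the neonatal liver, averaged 10.96 to 11.36 in control and 11.44 to 11.62 in metformin livers, without overlap, and their part in the member values was not tested.

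Of the chaperone network in HFD liver, the named genes stayed within 0.57 of 0 and none passed the threshold. Among 20 co-chaperones, 5 were higher and 1 lower at an unadjusted p under 0.05, against 7.85% and 9.4% of 10046 genes, among them Ppid at 0.32 and Bag4 at -0.32. Dnajb2 and Dnajc8, J-domain genes, gave 0.31 (adjusted p = 0.0904) and 0.28. Of the 14 genes of the mitochondrial import list, 5 had a positive difference in liver, with Dnajc15 at -0.40 (adjusted p = 0.119) and Grpel1, the exchange factor of Hspa9, at -0.31 (adjusted p = 0.121). The immediate-early genes Zfp36 and Fos gave -0.45 and -0.57, Erp29 and Creld2 of the ER list 0.23 and 0.27, and Hspa2 and Hspa12b -0.28 and -0.19. The small heat shock protein genes Cryab and Hspb8 gave -0.36 and -0.22, Cct3 and Pfdn2 0.14 and -0.12, and Hsbp1 and Hsf2 -0.15 and 0.02.

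In the RD arm, with 3 animals a group, no member probe passed the threshold in male liver (0.0228% of all probes did), in female liver (0%) or in male brain (0.00521%). In male liver no member reached an unadjusted p under 0.05 in either direction, where 1.26% of all probes were higher and 3.73% lower. Hspa8 ILMN_1246458 measured 12.61, 12.57 and 12.50 in control and 12.16, 12.23 and 12.36 in metformin male livers, the only member without overlap there, as 6.55% of all probes were in that direction. The difference was -0.31 (95% interval -0.64 to 0.02). In female liver, Hsp90aa1 ILMN_2752883 was the only member at an unadjusted p under 0.05 (-0.52, 95% interval -1.02 to -0.01), where 2.96% of all probes were lower. Averaged over both sexes, no member passed (0.0912% of all probes did), and Dnajb1 was the only one at an unadjusted p under 0.05 (-0.24, 95% interval -0.48 to -0.01), where 5.81% of all probes were lower.

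In brain, Hsph1 measured 10.41, 10.25 and 10.10 in controls and 9.88, 9.87 and 10.09 with metformin, without overlap, as for 3.68% of all probes in that direction. Its difference of -0.31 (95% interval -0.60 to -0.01, unadjusted p = 0.0451) was the only one of 14 at an unadjusted p under 0.05, where 1.22% of all probes were lower. The other brain differences lay between -0.33 and 0.65.

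**Figure D5:**
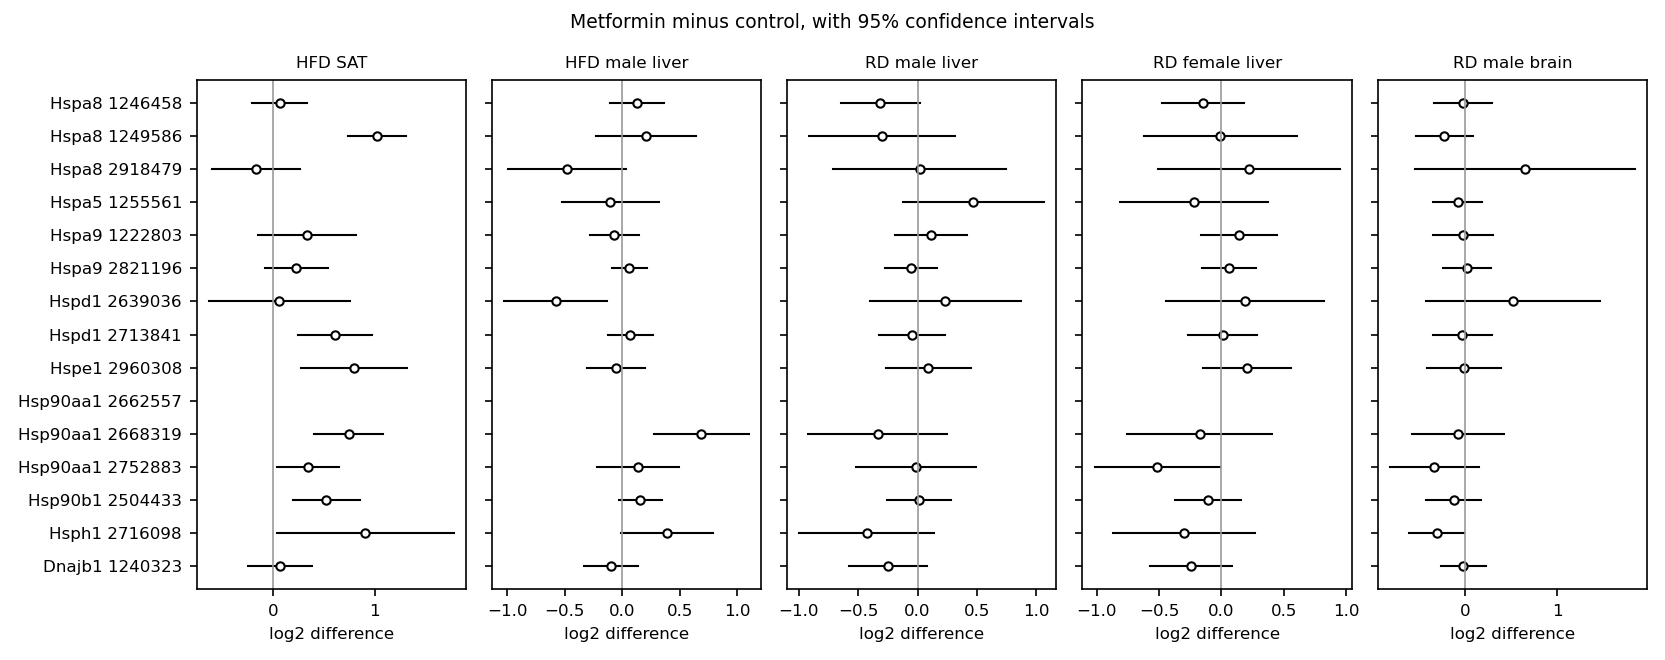
Log2 differences between metformin and control for each tested member probe in HFD SAT, HFD male liver, RD male liver, RD female liver and RD male brain, with 95% intervals; open points did not pass an adjusted p of 0.05. No probe passed in any of these 5 comparisons, and the value furthest from 0 was 1.02, for Hspa8 ILMN_1249586 in SAT.

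The differences between tissues, diets and sexes in the metformin effect were tested as interactions. None of the members passed the threshold in any of them. Between HFD SAT and HFD liver (0% of all probes passed), 3 of 13 member probes were higher in SAT at an unadjusted p under 0.05, against 8.94% of all probes: Hspe1 by 0.85 (95% interval 0.28 to 1.43, adjusted p = 0.162), Hspa8 ILMN_1249586 by 0.82 (0.22 to 1.42, adjusted p = 0.191) and Hspd1 ILMN_2713841 by 0.54 (0.14 to 0.94, adjusted p = 0.198). Hsp90aa1 ILMN_2668319, at 0.75 in SAT and 0.69 in liver when each tissue was fitted apart, gave an interaction of 0.06 (-0.49 to 0.61). Between HFD and RD male livers (0.211% of all probes passed), Hsp90aa1 ILMN_2668319 differed by 1.03 (0.31 to 1.74, adjusted p = 0.188) and Hsph1 by 0.82 (0.12 to 1.51). With Hspa8 ILMN_1246458 at 0.44 they were the 3 of 14 higher at an unadjusted p under 0.05, against 8.14% of all probes, and Hspd1 ILMN_2639036 was the 1 lower (-0.81), against 6.33%, in studies that cannot be told apart from the diets. Between female and male RD livers (0% passed) no member reached an unadjusted p under 0.05, and between RD brain and male liver (0% passed) only Hspa5 did, at -0.55, where 1.84% of all probes were lower.

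Control livers of the HFD arm differed from those of the RD arm in most members. Of 14 probes, 8 were lower and 2 higher, where 19.5% of all probes were lower and 17.3% higher. Hspe1 measured 10.78, 10.94 and 11.10 in RD control male livers and ranged from 9.21 to 9.55 in HFD controls. There was no overlap, as for 17.1% of all probes in that direction, and the difference was -1.52 (adjusted p = 2.48e-07). Hsp90aa1 ILMN_2668319 measured 9.12, 9.41 and 9.31 against a range of 7.17 to 8.11 (-1.61, adjusted p = 3.48e-05), with ILMN_2752883 at -0.73. Hspd1 was lower with both probes (-0.81 and -0.63), as was Hsp90b1 (-0.53), while Hsph1 (0.19), Dnajb1 (-0.13), Hspa5 (-0.44) and Hspa9 ILMN_1222803 (0.27) did not pass. The Hspa8 probes disagreed here as well, with -1.11 (ILMN_1249586, adjusted p = 0.00188), -0.80 (ILMN_2918479, adjusted p = 0.0436) and 0.48 (ILMN_1246458, adjusted p = 0.0089). The positive values of Hspa8 ILMN_1246458 and Hspa9 ILMN_2821196 (0.25) turned to -0.16 and -0.39 with arrays centred on their medians, and diet and study cannot be told apart. Without the RD control liver 3B, 6 of 14 probes passed in place of 10. The share of all probes in that refit is not given here, so this count does not set the members against other probes. Female and male RD control livers differed in 0 of 14 member probes (0.0513% of all probes), and in 0 at an unadjusted p under 0.05.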

How the data were processed

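Total RNA was hybridised to Illumina Mouse WG-6 v2 bead arrays (45281 probes, 41 arrays). The authors deposited unnormalised probe intensity with a detection p-value per array, and log2 values after variance stabilisation and robust spline normalisation with lumi (version not given in the sources used here). The authors left out 1 metformin SAT array as an outlier. Here the deposited intensities were corrected and quantile normalised over all arrays with neqc (offset 16) in limma 3.58.1 (R 4.3.3), and a model took the probes that all arrays of 1 or more of its groups detected (p under 0.05). The 11 SAT arrays, the 24 livers and the 6 brains were fitted apart, tissue comparisons over the arrays of 1 study, with lmFit and eBayes. The study's own design, with deposited log2 values and all arrays in 1 model, is an alternative. Probes were named from the platform annotation, by which 34885 probes had 1 gene symbol, 18 several and 10378 none. Promoter windows (RefSeq, GRCm38.p6) covered 250 bases before and 50 after a start, and 6 of the genes had one. Arrays give no read depth, and their number limits the precision.

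The members and the gene lists were chosen with earlier results of these data known. Named are all members with every probe, the 2 genes of each pathway list with the smallest p in HFD SAT and in HFD liver (brightest probe of a gene), and the 5 genes most correlated in SAT with each of the Hspa8 probes of smallest p and highest level. Probe pairs were compared with an exact permutation test. Liver and SAT, or liver and brain, carry the same animal code in the labels, so samples could be paired by animal. The tissue comparisons and interactions reported above did not use this pairing, and the animal as a replicate block is an alternative. The deviations of paired arrays from their group means correlated between -0.04 and 0.35. Each array is 1 animal, and several animals share a leading code (HFD) or an ending letter (RD). The test of the fits on simulated data and the figures used fixed seeds (Python 3.11.15, matplotlib 3.10.9). Alternatives covered background correction, scaling, filters, array weights, models and left-out animals.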

Additional observations from a re-analysis of the deposited data

Results flagged for a closer look

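Of 54 groups of 5 or 6 values of a member probe, 7 held a sample set apart from the rest of its group by Dixon's criterion, which chance meets in about 1 of 20 groups. In metformin SAT, animal 3R-1 was low for both Hspd1 probes, at 6.75 (ILMN_2639036, next value 7.94) and 11.03 (ILMN_2713841, next value 11.61). This is the array on which 7 of 7 keratinocyte markers were detected. In HFD control liver, Hspa8 ILMN_2918479 was high in 1T-1 at 11.65 (next value 10.59) and Hsph1 was low in 1R-4 at 6.97 (next value 7.68). In HFD metformin liver, Hspa8 ILMN_1246458 was high in 10K-1 at 13.45 (next value 13.17), Hspa8 ILMN_2918479 in 10K-2 at 10.91 (next value 10.14) and Dnajb1 in 3R-1 at 10.56 (next value 10.33).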

How the results depend on the processing

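The count of member probes past the threshold in HFD SAT, 0 as reported, was 1 (Hspa8 ILMN_1249586) with normalisation over the model's arrays only, deposited log2 values, no background correction, an offset of 50, no filter on dim probes, a detection p under 0.01, eBayes with trend and robust, animal code as a random block, without code 1T, and without the dim arrays. It was 5 with array weights, with all 41 arrays in 1 model, and with the deposited values in that model, and 0 to 1 when each animal was left out in turn, the 1 being without control 1T-1. It stayed 0 with arrays centred on their medians, without codes 1R, 10K or 3R, and without the 3 controls low in muscle markers. The interaction of SAT with liver gave 3 with array weights and 1 with deposited values and all arrays in 1 model, in place of 0. For these alternatives, counts of all probes called are given above only for SAT with all 41 arrays in 1 model. The member counts alone therefore do not set the members against other probes. HFD liver gave 1 in place of 0 without code 1T and without code 10K. The 7 SAT probes at an unadjusted p under 0.05 became 4 without code 3R, which leaves 1 metformin sample, assumed to vary like the controls. SAT against liver in controls gave 1 in place of 7 with arrays centred on their medians. HFD against RD controls gave 6 to 10 as each animal was left out. Among differences with an unadjusted p under 0.05 as reported, 3 turned sign, all in HFD against RD livers with arrays centred on their medians: Hspa8 ILMN_1246458 (-0.16) and both Hspa9 probes (-0.48 and -0.39). Differences that missed that p also turned sign under some settings, such as Dnajb1 in SAT without 3R-1 (-0.02). That centring moved the median of all probes to 0.52 in SAT and -0.19 in HFD liver, with member medians of 1.08 and -0.39. With the animal as a replicate block, the paired fits gave 0 for the interaction of SAT with liver, 7 for SAT against liver, 0 for the interaction of brain with liver and 12 for brain against liver, as without it. Taking the mean over probes in place of the brightest probe moved the members' median to 0.43 in SAT and from 0.07 to -0.05 in HFD liver. The cause of these changes was not tested.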
